A study of Homo sapiens with 4 samples.

Results

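IGF2, IGF1R, IGF2R, IGFBP2, IGFBP3, IGFBP4, IGFBP5, IGF2BP1, IGF2BP2 and IGF2BP3 were followed through 4 polyA-selected RNA-seq libraries of HEK293, an established human embryonic kidney cell line. They are 10 of the 40188 genes with a value in these libraries and were picked by symbol, as the growth factor IGF2, its receptors, secreted IGF-binding proteins and the IGF2 mRNA-binding proteins; all 10 symbols were matched to 1 Ensembl identifier each. The choice was made knowing that IGF2 and IGFBP5 differ between these libraries, so their differences are described and not tested. Each library came from a separate stable line with a doxycycline-inducible transgene, carrying an empty vector, MSI1, SRRM3 or SRRM4, and all 4 lines, the empty-vector control included, received 1 µg/mL doxycycline for 24 h. MSI1 is an RNA-binding protein, and SRRM3 and SRRM4 are splicing factors that act on neural microexons, and by its title the series concerns how these proteins regulate microexons of the retina. Whether a line is 1 clone or a pool is not stated in the labels.

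IGF2 and IGF1 are secreted growth factors that signal through the receptor tyrosine kinase IGF1R and through the insulin receptor. IGF2R, the cation-independent mannose 6-phosphate receptor, takes up IGF2 for lysosomal degradation and sorts lysosomal enzymes. The IGF-binding proteins hold IGFs outside the cell, and proteases that cleave the binding proteins release the IGFs. The IGF2BP proteins are cytoplasmic RNA-binding proteins of embryonic and tumour cells that bind IGF2 mRNA and many other transcripts. HEK293 cells are known for the insulin receptor substrate IRS4.

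There was 1 library per group, with 60288244 to 63003121 counted reads. Replicate error is therefore unknown, no p-values are given, and an effect of a transgene and a difference between lines cannot be told apart. In bulk RNA, fewer cells with a transcript and less transcript per cell cannot be told apart either. Levels are given as cRPKM, a corrected RPKM that scales reads by gene length and library total, so that levels of different genes can be set side by side. The empty-vector library is called the control below, and a run of 4 levels stands in the order control, MSI1, SRRM3, SRRM4. Ratios between libraries are ratios of depth-scaled counts, with exact 95% intervals in parentheses that cover counting error only. A gene was called 2-fold different where its log2 fold on the log2(cRPKM + 0.5) scale reached 1 in either direction, and only genes whose cRPKM averaged 1 or more over the 4 libraries were tested. At most 0.882% of all genes tested were called in any of the 4 comparisons. A short gene list with none called is therefore near the share of all genes, and nothing is read from such counts below. Each induced gene was highest in its own library, MSI1 at 62.43 against 8.38 cRPKM in the control, SRRM3 at 38.53 against 0.49 and SRRM4 at 63.78 against 0.39. The 3 genes also differed outside their own libraries. SRRM4 had 201 reads in the control, 6 in MSI1 and 95 in SRRM3. The SRRM3 gene had a ratio of 2.82 in the SRRM4 library (2.25 to 3.54), and the MSI1 gene one of 1.26 in the SRRM3 library (1.18 to 1.35). Of 6 genes described as expressed in HEK293, 5 passed the filter on low values, with IRS4 between 108.19 and 223.05 cRPKM. INA, a neuronal intermediate filament gene, was 2-fold higher in SRRM3, at 12.61, 20.24, 26.42 and 22.01 cRPKM, a ratio of 2.09 there (2.0 to 2.2). NEFM, a neurofilament gene, had a ratio of 1.72 in SRRM3 (1.64 to 1.80). The 6 genes summed to 247.57, 223.29, 338.26 and 247.03 cRPKM, and their part in the IGFBP5 result was not tested. IRS4, the largest part of each sum, was highest in SRRM3 and lowest in MSI1, as IGFBP5 was. The other genes were not lowest in MSI1. Their ratios there were 1.39 for NEFM, 1.07 for NEFL, 1.6 for INA, 1.26 for PAX2 and 1.02 for LIN28B (0.995 to 1.05). PAX2, which did not pass the filter, was at 0.73 to 1.25 cRPKM. Summed levels of 5 hepatocyte markers, which would mark a cell type that secretes IGFs, were 0.06 to 0.11 cRPKM. Those of 5 blood markers were 0.16 to 0.25 and those of 4 endothelial markers 0.29 to 0.42 cRPKM. Of 6 fibroblast markers only COL1A1 passed, at 3.23 to 4.29 cRPKM, while COL1A2 and DCN had at most 1 read in any library. COL3A1 had 49, 6, 72 and 53 reads and LUM 73, 54, 32 and 61. In MSI1 COL1A1 had a ratio of 1.30 (1.21 to 1.39) and COL3A1 one of 0.121 (0.0422 to 0.282).

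The IGFBP genes are shown first by sequence, as a description, because the results turn on IGFBP5. Its relatives IGFBP3 and IGFBP4 did not share its pattern over the libraries. Whether the sequences bear on the levels was not tested. IGFBP5 (ENSG00000115461, GRCh38 chromosome 2, 216672105 to 216695525, minus strand) lies 7668 bp from IGFBP2 (ENSG00000115457, chromosome 2, 216632828 to 216664436, plus strand), the 2 genes ending towards each other. IGFBP3 (ENSG00000146674, chromosome 7, 45912245 to 45921874, minus strand) is 18576 bp from IGFBP1, and IGFBP4 (ENSG00000141753, chromosome 17, 40443461 to 40457731, plus strand) is on another chromosome. The 250 bases before the RefSeq start (GRCh38.p14, on the gene's strand, 5′ to 3′) are given with matches to 5 short motifs in capitals. These are 3 TATA-like elements, searched on the gene's strand, and the GC box and an E-box, searched on both strands, each spelled out after the sequences; none of the matches overlap.
IGFBP5: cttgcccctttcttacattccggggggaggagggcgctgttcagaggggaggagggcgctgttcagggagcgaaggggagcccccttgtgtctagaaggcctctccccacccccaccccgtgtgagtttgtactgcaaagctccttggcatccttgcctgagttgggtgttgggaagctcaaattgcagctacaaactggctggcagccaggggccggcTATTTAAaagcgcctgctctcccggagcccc
IGFBP3: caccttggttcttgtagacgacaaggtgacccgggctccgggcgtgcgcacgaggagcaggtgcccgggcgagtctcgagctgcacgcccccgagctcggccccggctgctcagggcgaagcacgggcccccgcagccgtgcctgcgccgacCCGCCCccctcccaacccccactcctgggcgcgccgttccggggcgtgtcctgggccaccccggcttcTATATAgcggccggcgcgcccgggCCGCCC
IGFBP4: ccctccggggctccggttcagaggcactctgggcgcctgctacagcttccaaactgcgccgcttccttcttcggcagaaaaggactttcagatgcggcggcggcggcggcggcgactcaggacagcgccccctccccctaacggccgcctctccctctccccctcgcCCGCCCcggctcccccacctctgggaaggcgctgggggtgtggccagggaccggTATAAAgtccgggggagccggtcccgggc
These stretches are chr2:216695550-216695799, chr7:45921273-45921522 and chr17:40443200-40443449. The IGFBP3 stretch lies inside the gene bounds given above, which are from GENCODE 29 and place the start further upstream. Distances to a start below are to the RefSeq start. Each holds 1 TATA-like element near the start. IGFBP5 has TATTTAA beginning 31 bases before the start, a motif held by 2.43% of 35116 windows of 300 bases in the same table (250 before and 50 after a start). IGFBP3 has TATATA at 30 bases, held by 3.99% of windows, and IGFBP4 has TATAAA at 29 bases, held by 7.33%. The windows of IGFBP2, which are not printed, had no match to any of the TATA-like elements. The GC box GGGCGG, found in 45.0% of all windows, occurs on the opposite strand, as CCGCCC, in 2 places in the IGFBP3 stretch and 1 in that of IGFBP4, and was not matched in that of IGFBP5. The G and C content is 61.2% for IGFBP5, 76.0% for IGFBP3 and 71.6% for IGFBP4. The windows of IGFBP5, IGFBP3 and IGFBP4 did not hold the E-box CACGTG (7.26% of all windows), which occurs 3 times in the window of IGF2R and 2 times in that of IGF2BP3. Windows were found for 8 of the 10 genes, not for IGF2 and IGF2BP1.

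IGF2 (ENSG00000167244, chromosome 11, 2129112 to 2149603, minus strand), the ligand, had low mRNA levels in all 4 libraries and was highest in MSI1. It was at 0.88 cRPKM (284 reads) in the empty vector, 3.20 cRPKM (1053 reads) in MSI1, 0.96 cRPKM (315 reads) in SRRM3 and 0.73 cRPKM (229 reads) in SRRM4. The MSI1 library stood apart from the other 3, whose levels were close together. The MSI1 count was 3.65-fold that of the empty vector (3.20 to 4.18), and on the log2 scale the difference was 1.42, which placed IGF2 as number 14 from the top among 12705 genes. SRRM3 and the empty vector were not distinguishable by counting error, with a ratio of 1.095 (0.930 to 1.29). SRRM4 was the lowest, at 0.830 of the empty vector (0.695 to 0.992) and 0.227 of MSI1 (0.196 to 0.262). IGF2 passed the filter on low values only through the MSI1 library, since its mean over the other 3 was 0.857 cRPKM.

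IGF2 belongs to an imprinted region, and 5 annotated genes overlap it. IGF2-AS, on the opposite strand, had 6, 10, 4 and 1 reads, and whether the counting used strand is not stated in the labels. MIR483 and the 3-prime-overlapping RNA AC132217.1 had no reads. INS-IGF2, which joins insulin to IGF2 exons, and a second IGF2 gene model were not analysed here, and how reads shared with them were assigned is not known. H19, the noncoding RNA expressed reciprocally to IGF2 from the other parental allele, had 9, 7, 12 and 8 reads. Of 13 genes of the region 4 passed the filter, and none was 2-fold different in any comparison. PHLDA2, an imprinted growth regulator, was at 7.56, 10.21, 5.88 and 7.82 cRPKM, a ratio of 1.35 in MSI1 (1.19 to 1.54). CD81, a tetraspanin and the most abundant gene of the region, was at 146.25 to 160.38 cRPKM. Among 10 regulators of IGF2, 8 passed and none was 2-fold different. PLAGL1, an imprinted zinc finger factor, was at 5.63, 7.72, 6.90 and 7.16 cRPKM, with a ratio of 1.37 in MSI1 (1.26 to 1.49). TRIM28, a corepressor that maintains imprints, was at 221.31 to 257.62 cRPKM.

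**Figure D1:**
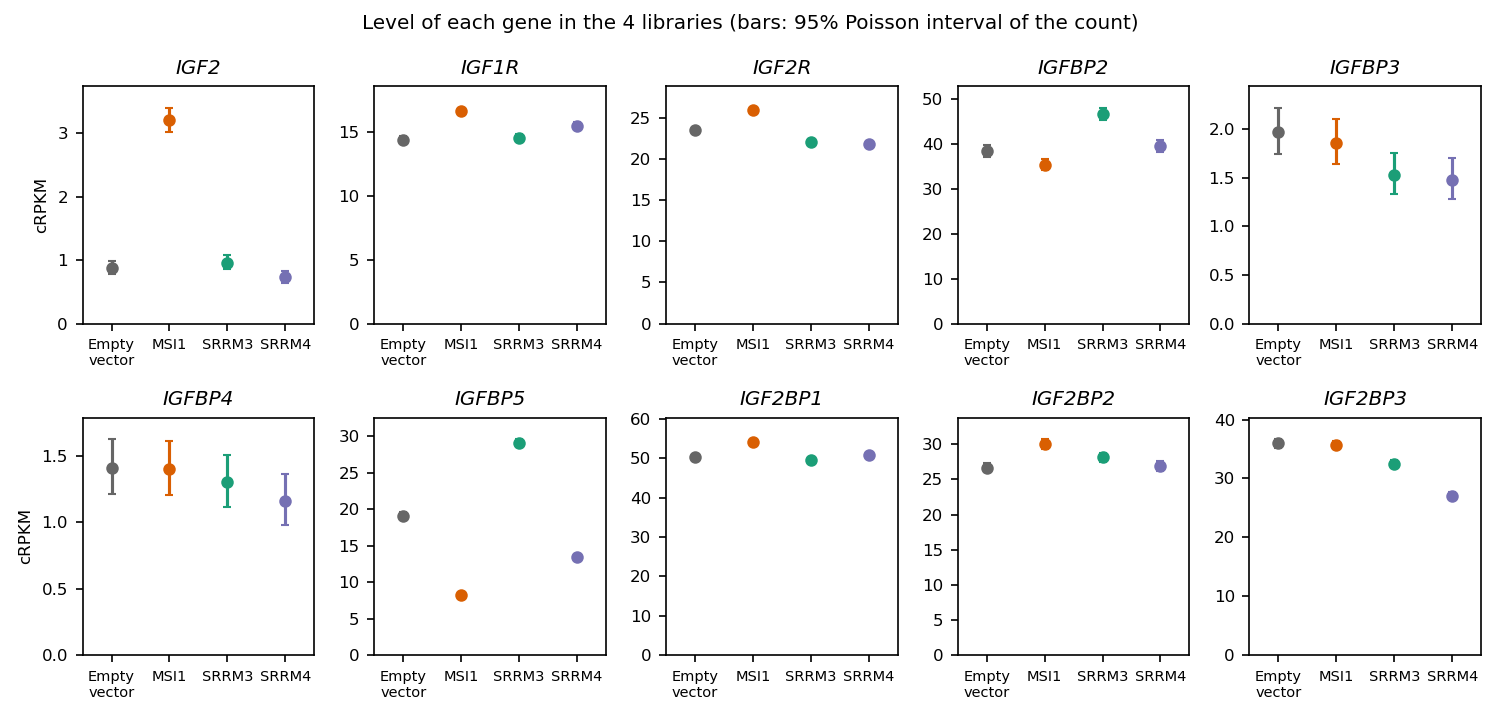
Level in cRPKM (y axis, from 0, scaled per gene) of each of the 10 genes in the 4 libraries (x axis), with the 95% Poisson interval of the count as a bar. IGF2 is high in MSI1 at 3.20 cRPKM, IGFBP5 ranges from 8.16 in MSI1 to 29.03 in SRRM3, and the receptors and IGF2BP1 are nearly level.

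The receptors were nearly level across the libraries. IGF1R (ENSG00000140443, chromosome 15, 98648539 to 98964530, plus strand), the signalling receptor, was at 14.40, 16.61, 14.55 and 15.49 cRPKM. The highest level was 1.15-fold its lowest. The MSI1 ratio was 1.15 (1.12 to 1.18), the SRRM4 ratio 1.08 (1.05 to 1.11), and the SRRM3 ratio 1.01 (0.983 to 1.04). IGF2R (ENSG00000197081, chromosome 6, 159969099 to 160113507, plus strand), the clearance receptor, was at 23.50, 25.88, 22.08 and 21.81 cRPKM. It was highest in MSI1, with a ratio of 1.101 (1.08 to 1.12), and lower than the empty vector in SRRM3 and SRRM4, with ratios of 0.939 (0.921 to 0.958) and 0.928 (0.910 to 0.947). SRRM3 and SRRM4 did not differ beyond counting error for IGF2R, at 0.988 (0.968 to 1.01). In cRPKM the clearance receptor exceeded the signalling receptor by 1.63, 1.56, 1.52 and 1.41 times, and exceeded its ligand IGF2 by 26.7, 8.09, 23.0 and 29.9 times. INSR, the insulin receptor, was at 7.48, 8.77, 8.34 and 7.38 cRPKM, below IGF1R in each library by 1.74 to 2.10 times. M6PR, the other mannose 6-phosphate receptor, was at 63.44 to 65.83 cRPKM. None of 13 sorting and lysosomal genes was 2-fold different, with medians of the log2 fold between -0.022 and 0.0034 over the empty vector. Among them NPC2, a lysosomal cholesterol carrier, moved most, from 56.44 cRPKM in SRRM4 to 69.56 in SRRM3.

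Among the 4 IGF-binding proteins IGFBP5 varied most over the libraries. IGFBP5, a secreted binding protein held in the extracellular matrix, was at 19.10 cRPKM (7313 reads) in the empty vector, 8.16 (3171 reads) in MSI1, 29.03 (11256 reads) in SRRM3 and 13.42 (4990 reads) in SRRM4. The 4 libraries thus ran in the order SRRM3, empty vector, SRRM4 and MSI1, and each step was larger than counting error. Against the empty vector the ratio was 0.427 in MSI1 (0.410 to 0.446), 1.52 in SRRM3 (1.48 to 1.57) and 0.703 in SRRM4 (0.678 to 0.729). The log2 fold in MSI1 was -1.18, number 32 from the bottom among 12705 genes. The paralogs SRRM3 and SRRM4 lay on opposite sides of the control, and SRRM4 had 0.463 of the SRRM3 count (0.447 to 0.478). The highest library had 3.56 times the level of the lowest. On the log2(cRPKM + 0.5) scale the range over the 4 libraries was 1.77 for IGFBP5 and 1.59 for IGF2, against a median of 0.24 over all genes passing the filter. Both genes were picked knowing that they differ, and IGF2 passed the filter only through MSI1, so nothing is read from this contrast.

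IGFBP2, the most abundant of the group, was at 38.51, 35.43, 46.66 and 39.51 cRPKM. It had the same lowest and highest library as its neighbour IGFBP5, with smaller steps, a ratio of 0.920 in MSI1 (0.876 to 0.967) and 1.21 in SRRM3 (1.16 to 1.27). SRRM4 did not differ from the empty vector beyond counting error, at 1.03 (0.978 to 1.08). IGFBP3, the main carrier of IGFs in serum, was at 1.97, 1.86, 1.53 and 1.48 cRPKM, from 271, 260, 213 and 197 reads. Both SRRM libraries were below the empty vector, with ratios of 0.776 (0.645 to 0.932) and 0.749 (0.620 to 0.903), and did not differ from each other beyond counting error. IGFBP4, an inhibitory binding protein, was at 1.41, 1.40, 1.30 and 1.16 cRPKM from 150 to 190 reads, and all intervals of its ratios included 1. The 4 levels summed to 60.99 cRPKM in the empty vector, 46.85 in MSI1, 78.52 in SRRM3 and 55.57 in SRRM4. IGFBP5 made up 31.3%, 17.4%, 37.0% and 24.1% of that sum in these libraries, and IGFBP2 63.1%, 75.6%, 59.4% and 71.1%.

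**Figure D2:**
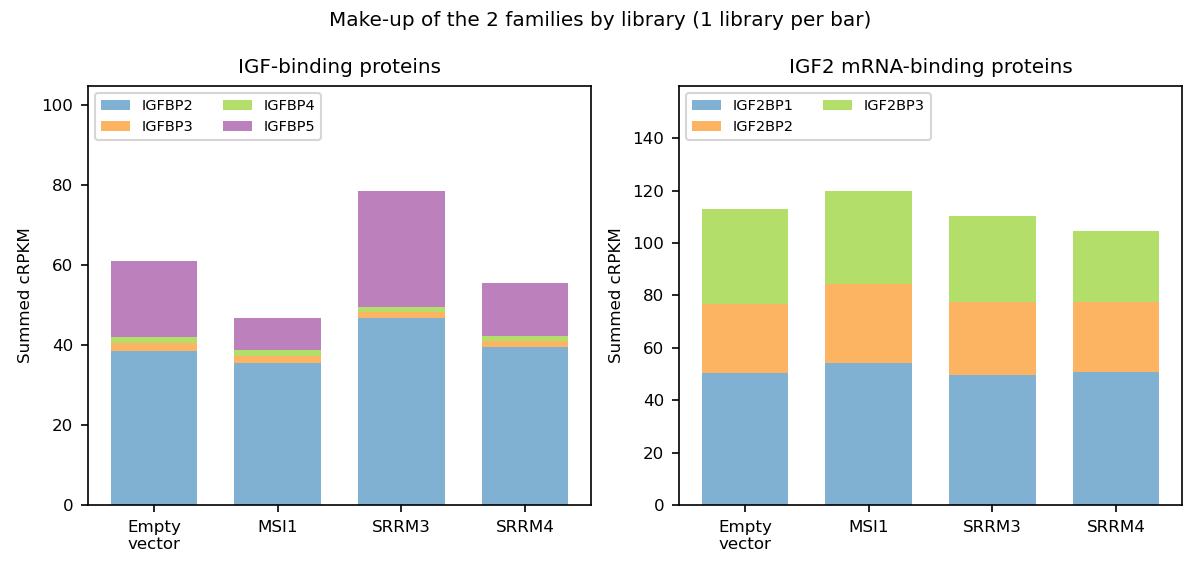
Summed cRPKM (y axis) of IGFBP2 to IGFBP5 (left) and of IGF2BP1 to IGF2BP3 (right) in each library (x axis), with each gene as a coloured segment. The IGFBP bar runs from 46.85 in MSI1 to 78.52 in SRRM3 mainly through IGFBP5, while the IGF2BP bar stays between 104.72 and 119.93.

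Among the other ligands and binding proteins, IGF1 had 3 to 5 reads per library, INS had none and IGFBP1 had at most 1, so no ratio is given for them. IGFBP7, a low-affinity relative secreted into the matrix, was at 10.85, 7.33, 10.81 and 8.73 cRPKM, with a ratio of 0.675 in MSI1 (0.610 to 0.748) and 0.805 in SRRM4 (0.729 to 0.888). It was lower in the libraries where IGFBP5 was lower, and level with the empty vector in SRRM3 at 0.997 (0.909 to 1.09). Of 13 IGFBP proteases, their inhibitors and convertases, 8 passed the filter and none was 2-fold different. HTRA1, a secreted serine protease that cleaves IGFBP5, was at 12.15, 8.95, 12.64 and 8.35 cRPKM, with ratios of 0.737 in MSI1 (0.682 to 0.795) and 0.688 in SRRM4 (0.635 to 0.744). CTSD, cathepsin D, was the most abundant of the list at 77.22 to 80.19 cRPKM.

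The IGF2 mRNA-binding proteins were all well expressed. IGF2BP1 (ENSG00000159217, chromosome 17, 48997412 to 49055650, plus strand), known for stabilising MYC mRNA and localising ACTB mRNA, was the highest of the 10 genes in every library, at 50.23, 54.20, 49.52 and 50.68 cRPKM. Its range over the libraries was the smallest of the 10, with 1.09 times between highest and lowest. IGF2BP2 (ENSG00000073792, chromosome 3, 185643739 to 185825056, minus strand), the paralog with a role in metabolism, was at 26.69, 30.03, 28.13 and 26.95 cRPKM. It was highest in MSI1, with a ratio of 1.13 (1.09 to 1.16), and level with the empty vector in SRRM4 at 1.01 (0.974 to 1.05). IGF2BP3 (ENSG00000136231, chromosome 7, 23310209 to 23470467, minus strand), an oncofetal paralog, was at 35.95, 35.70, 32.50 and 27.09 cRPKM. MSI1 and the empty vector did not differ beyond counting error, at 0.993 (0.965 to 1.02), while SRRM3 was lower at 0.904 (0.878 to 0.931) and SRRM4 lower still at 0.754 (0.730 to 0.778). MALSU1, a protein-coding gene that overlaps IGF2BP3 on the opposite strand, had 1965, 2128, 1784 and 1957 reads. The IGF2BP3 share of the 3 paralogs was 31.9%, 29.8%, 29.5% and 25.9%, and that of IGF2BP1 44.5%, 45.2%, 45.0% and 48.4%. In SRRM4 the second place among the 3 was thus nearly tied, with IGF2BP2 at 26.95 and IGF2BP3 at 27.09 cRPKM.

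Of 10 mRNAs described as bound by IGF2BP proteins, 8 passed the filter and none was 2-fold different, with median log2 folds of 0.014 in MSI1, -0.016 in SRRM3 and -0.017 in SRRM4. MYC, a transcription factor gene whose mRNA is bound through its coding region, moved most. It was at 15.31, 8.63, 9.83 and 15.11 cRPKM, with ratios of 0.564 in MSI1 (0.526 to 0.605) and 0.642 in SRRM3 (0.600 to 0.686). CD44, on the same list, went the other way in MSI1, with a ratio of 1.69 (1.59 to 1.79). In SRRM3 CD44 was lower, at 0.692 (0.645 to 0.743). Of the 8 genes, 4 had a log2 fold above 0 in MSI1 and 4 below. ACTB, the most abundant of the list, was at 1235.79 to 1362.04 cRPKM.

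Set out by comparison, the MSI1 library had 1 of the 10 genes 2-fold higher than the empty vector, IGF2, and 1 2-fold lower, IGFBP5. Over all 12705 genes tested 0.299% were 2-fold higher and 0.37% 2-fold lower, 0.669% together, and since IGF2 and IGFBP5 were among the differences on which the genes were chosen, nothing is read from their count. The other 8 genes stayed within 1.5-fold. By the counting interval alone 5 of the 10 were higher in MSI1 (IGF2, IGF1R, IGF2R, IGF2BP1 and IGF2BP2) and 2 lower, against 32.3% and 27.6% of all genes. The median log2 fold of the 10 was 0.051, beside 0.016 over all genes tested.

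In SRRM3 none of the 10 was 2-fold different, where 0.582% of all 12705 genes were higher and 0.299% lower, 0.882% together. IGFBP5, at a log2 fold of 0.59, was number 216 from the top, and the other 9 stayed within 1.5-fold. By the interval 3 were higher (IGFBP2, IGFBP5 and IGF2BP2) and 3 lower (IGF2R, IGFBP3 and IGF2BP3), beside 29.6% and 28.1% of all genes. In SRRM4 none was 2-fold different either, where 0.551% of all genes were higher and 0.22% lower, 0.771% together, and all 10 stayed within 1.5-fold. By the interval IGF1R was higher and 5 genes were lower (IGF2, IGF2R, IGFBP3, IGFBP5 and IGF2BP3), beside 23.2% and 25.1% of all genes. IGFBP5 and IGF2BP3, at log2 folds of -0.49 and -0.40, were numbers 118 and 201 from the bottom. The median of the 10 was -0.0029 in SRRM3 and -0.14 in SRRM4, beside 0.0029 and -0.0035 over all genes tested. The 3 comparisons share the empty-vector library.

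SRRM4 against SRRM3 compares the paralogs without that library. IGFBP5 was 2-fold lower in SRRM4, the only one of the 10 past that size, where 0.276% of 12704 genes were 2-fold higher and 0.236% lower, 0.512% together. By the interval 2 of the 10 were higher and 5 lower, beside 27.1% and 30.5% of all genes. IGF2BP3 had a ratio of 0.833 (0.807 to 0.860), IGFBP2 0.847 (0.809 to 0.887) and IGF2 0.758 (0.637 to 0.902). IGF1R had a ratio of 1.07 (1.04 to 1.09). IGF2R, IGFBP3 and IGFBP4 did not differ beyond counting error.

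**Figure D3:**
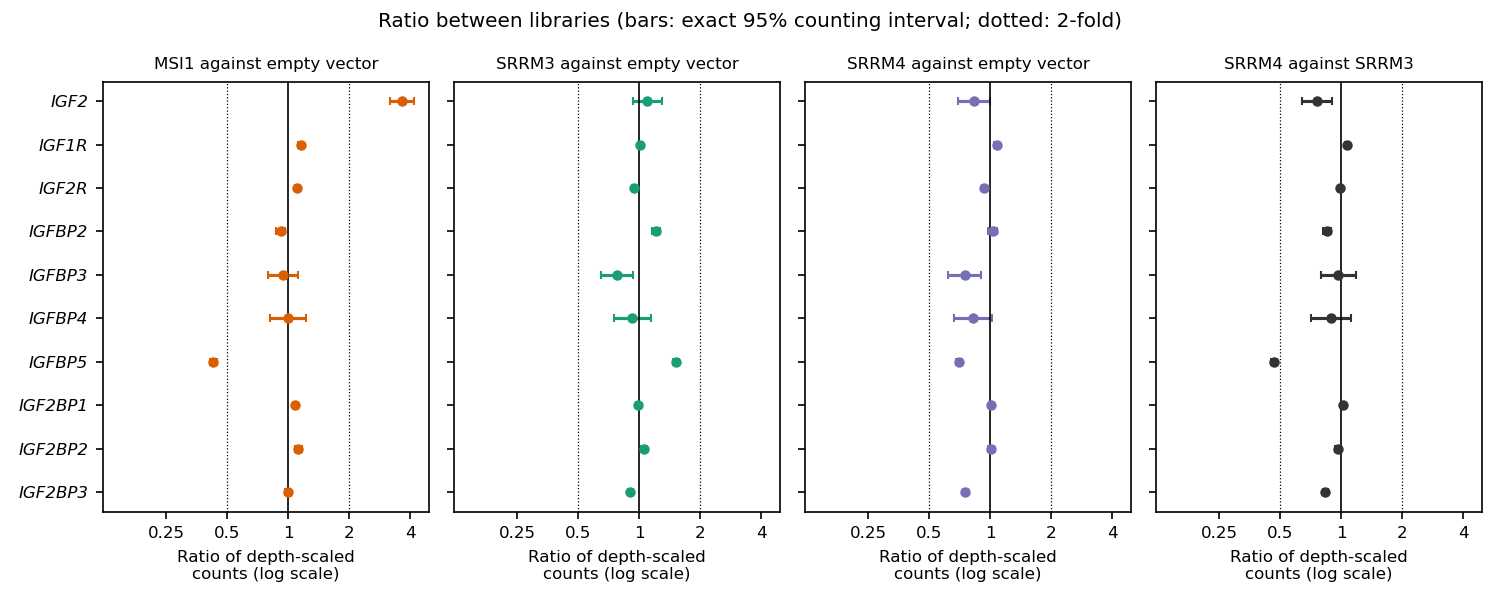
Ratio of depth-scaled counts (x axis, log scale) of the 10 genes (y axis) in the 4 comparisons, with exact 95% counting intervals as bars and dotted lines at 0.5 and 2. IGF2 at 3.65 and IGFBP5 at 0.427 stand outside the lines in MSI1, and IGFBP5 alone, at 0.463, in SRRM4 against SRRM3.

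The 10 pathway lists, which run from the imprinted region, proteases and lysosomal genes to the signalling arms downstream of IGF1R, hold 123 genes, of which 122 had values and 100 passed the filter. None of the 100 was 2-fold different in any of the 4 comparisons, where 0.669%, 0.882%, 0.771% and 0.512% of all genes were in MSI1, SRRM3 and SRRM4 over the empty vector and in SRRM4 over SRRM3. These shares amount to fewer than 1 gene in 100, so nothing is read from that count. By the counting interval 34 of the 100 were higher and 31 lower in MSI1, beside 32.3% and 27.6% of all genes tested. The counts were 32 and 26 in SRRM3 (29.6% and 28.1% of all genes) and 22 and 30 in SRRM4 (23.2% and 25.1%). In SRRM4 against SRRM3 they were 26 and 37 (27.1% and 30.5%). These counts are near the shares of all genes, so nothing is read from them either. By a 1.5-fold size on the log2(cRPKM + 0.5) scale KLF6 and CD44 were higher and MYC lower in MSI1, where 1.73% and 1.16% of all genes were higher and lower. MYC was lower in SRRM3 (1.74% higher and 0.882% lower among all genes), where IRS4 lay just under that size with a log2 fold of 0.58, and there was none in SRRM4 (1.2% and 0.638%). Between the paralogs MYC was higher and IRS4 lower in SRRM4 (0.882% and 1.31%). The adaptor IRS4 (ENSG00000133124, chromosome X, 108732482 to 108736409), the main insulin receptor substrate of these cells, was the most abundant of the receptor and adaptor list and moved most in it. It was at 148.64, 108.19, 223.05 and 145.51 cRPKM. Its ratio was 0.728 in MSI1 (0.716 to 0.740) and 1.5 in SRRM3 (1.48 to 1.52). SRRM3 was thus the highest and MSI1 the lowest library for IRS4, as for IGFBP5, and SRRM4 was near the empty vector at 0.979 (0.964 to 0.994). IRS4 exceeded IGF1R in cRPKM by 10.3, 6.51, 15.3 and 9.39 times.

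In the PI3K, AKT and mTOR arm all 24 genes passed, with medians of 0.054, 0.047 and 0.0076 on the log2 scale in MSI1, SRRM3 and SRRM4. GSK3A, a kinase inhibited by AKT, was the most abundant at 69.99 to 77.41 cRPKM, and PIK3R3, a regulatory subunit of PI3K, moved most, with 11.51 cRPKM in MSI1 against 15.75 in the control, a ratio of 0.731 (0.702 to 0.762). In the RAS and ERK arm all 10 passed, with medians of 0.082, 0.015 and 0.041. MAP2K2, the kinase MEK2, was at 63.26 to 73.52 cRPKM. MAPK3, the kinase ERK1, was at 35.14 in SRRM3 against 28.14 in the control, a ratio of 1.25 (1.19 to 1.31). Of 15 FOXO target genes, which are held down by insulin and IGF signalling, 13 passed, with medians of -0.015, 0.0 and -0.10. KLF6, a zinc finger factor, was at 9.21, 16.00, 8.85 and 8.59 cRPKM, with a ratio of 1.74 in MSI1 (1.66 to 1.82). GADD45A, a stress-response gene and the most abundant of these, was at 25, 33.04, 25.82 and 23.01 cRPKM, with a ratio of 1.32 in MSI1 (1.25 to 1.40). These 2 genes do not stand for the list, of which 6 genes had a log2 fold above 0 in MSI1 and 7 below.

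**Figure D4:**
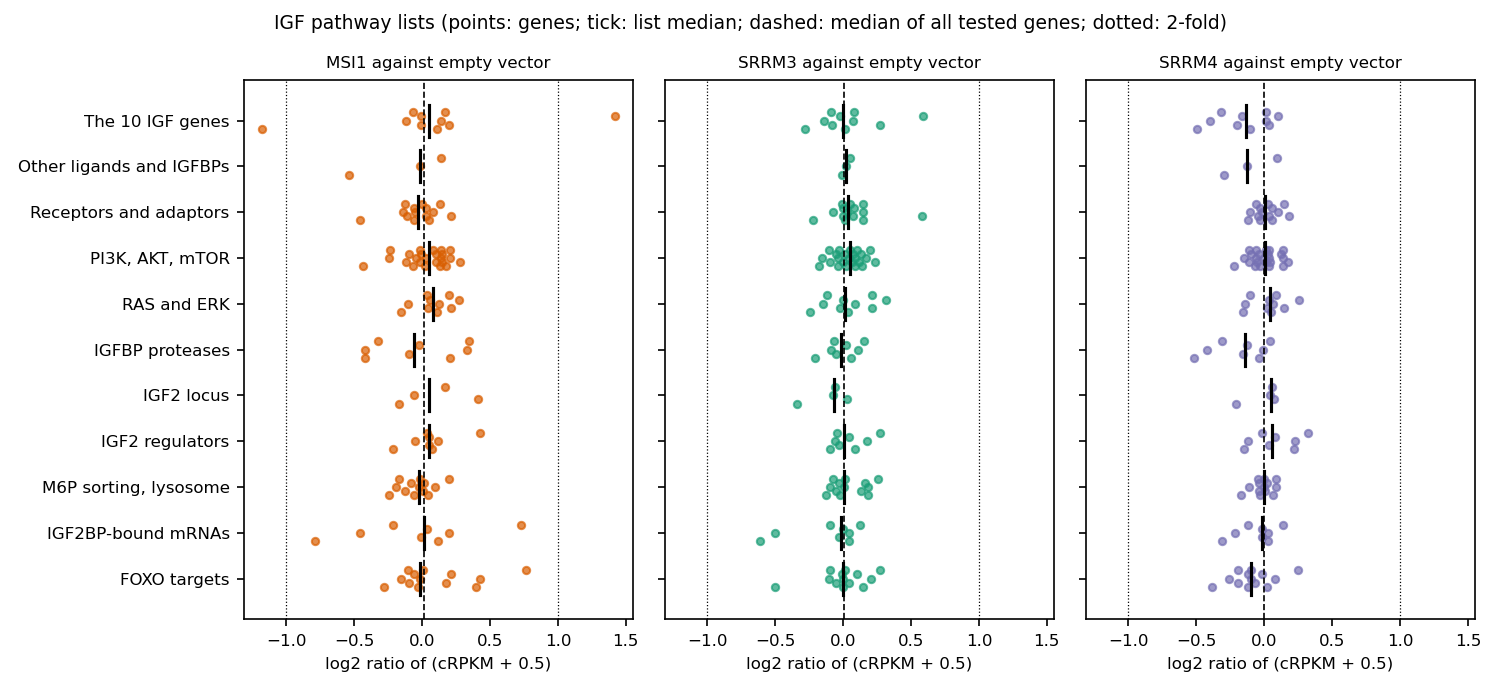
log2 ratio of (cRPKM + 0.5) over the empty vector (x axis) for the 10 genes and for each of 10 pathway lists (y axis), 1 point per gene passing the filter, in MSI1, SRRM3 and SRRM4. Ticks mark list medians, the dashed line the median of all genes tested, and only IGF2 and IGFBP5, both in MSI1, lie beyond the dotted 2-fold lines.

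The genes most like IGF2 and IGFBP5 over the 4 libraries were ranked by Euclidean distance between their log2(cRPKM + 0.5) values, each centred on its own mean, among 12705 other genes. This is a description over 4 libraries with no replicates. RHOB, a small GTPase, was nearest to IGF2, at a distance of 0.109, with 34.54, 102.73, 39.16 and 31.31 cRPKM. TAC1 (the substance P precursor), FAM162B, KLF2 (a shear-responsive transcription factor) and PLPP2 (a lipid phosphatase) followed at 0.311 to 0.421. All 5 were highest in MSI1, which follows from their being ranked by likeness to IGF2. Nearest to IGFBP5 were METTL7A at 0.213, MYOM2 (myomesin 2) at 0.218, CKMT1B at 0.221, IFI6 at 0.270 and DNASE1L2 at 0.356. IFI6, an interferon-induced gene, was at 17.21, 6.15, 24.83 and 9.40 cRPKM, and METTL7A at 9.26, 4.52, 14.12 and 7.45 cRPKM. CKMT1B had 4 to 22 reads per library and a near-identical copy, CKMT1A, so its place is uncertain. All 5 were highest in SRRM3 and lowest in MSI1, which likewise follows from the ranking by likeness to IGFBP5. IRS4 was number 30 in this order, IGFBP7 number 175 and IGFBP2 number 616.

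**Figure D5:**
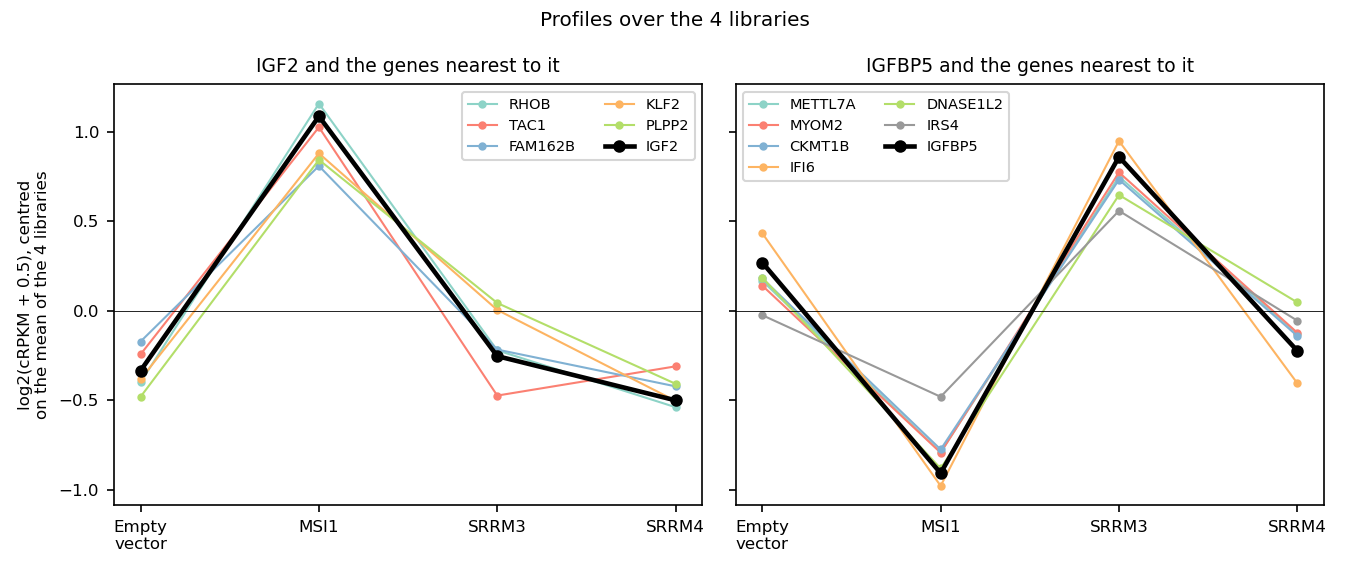
log2(cRPKM + 0.5), centred on the mean of the 4 libraries (y axis), in each library (x axis) for IGF2 (left) and IGFBP5 (right) in black with their 5 nearest genes in colour, and IRS4 in grey on the right. The lines on the left peak in MSI1 and those on the right peak in SRRM3 and are lowest in MSI1.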

How the data were processed

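The deposited files give, per library and Ensembl gene, a cRPKM value (an RPKM corrected and computed by the authors) and a whole-number read count, per the labels from polyA-selected stranded RNA-seq. Per the submitters' processing notes they used GRCh38 (hg38). Which aligner, counter, annotation and strand setting they used is not given in the sources consulted. Over 7682 well-covered genes the ratio of deposited count to RPKM between libraries followed total counts within 0.172%. Of 41614 genes listed, 1426 have no value. Symbols were found for 39633 of the other 40188, and coordinates are from GENCODE 29.

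Groups follow the genotype labels, with 1 library each. Folds used a pseudocount of 0.5 on cRPKM, and the 12706 genes averaging 1 cRPKM or more were tested, leaving out the induced genes of a comparison. Count ratios were scaled by total counts, with exact (Clopper-Pearson) 95% intervals. Reads are not independent molecules, so an interval covers nothing beyond counting error. The floor was 3 reads, and no ratio is given where both libraries are at or near it. The procedure was checked on simulated counts with set folds and counting error only, so the check does not cover spread between lines or replicates. The 10 genes, the pathway lists and the motifs were chosen with earlier results of these data, or the sequences, known. Named besides the 10 are the most abundant and the most variable member of each pathway list, any member of these 2-fold different, INSR, M6PR, IRS4, the induced genes and the 5 genes nearest to IGF2 and to IGFBP5. CD44, H19, IGF1, INS, IGFBP1, the overlapping genes and the markers were named after their values were seen. One gene that the rule names is not reported here. Alternatives were pseudocounts of 0.1 and 2, no filter, a mean cRPKM of at least 5, CPM with TMM factors, centring on the median, a 1.5-fold rule, the 2-fold rule with the interval, and MSI1 as control. Promoter sequences are from RefSeq (GRCh38.p14). Tools were edgeR 4.0.16 in R 4.3.3 for TMM factors, and Python 3.11.15 with scipy 1.17.1, pandas 2.3.3 and numpy 2.4.6, with plots by matplotlib 3.10.9.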

Additional observations from a re-analysis of the deposited data

Results flagged for a closer look

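IGF2 and IGFBP5 were each on opposite sides of the empty vector in 2 induced lines, by more than counting error and with at least 1.5-fold between those lines. IGF2 had a ratio to the empty vector of 3.65 in MSI1 and 0.830 in SRRM4, the latter with an interval that ends at 0.992. IGFBP5 had a ratio of 1.52 in SRRM3, against 0.427 in MSI1 and 0.703 in SRRM4. With 1 library per group these differences between lines were not tested. The interferon-induced gene IFI6 moved in the same order as IGFBP5 over the 4 libraries. It was named as 1 of the 5 genes nearest to IGFBP5, so this likeness follows from how it was picked. Its part in the IGFBP5 result was not tested.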

How the results depend on the processing

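No paired analysis was possible because each group has 1 library, and leaving out a replicate was not possible for the same reason. In MSI1 over the empty vector the count of 2 genes at 2-fold fell to 1 with a pseudocount of 2 and to 1 with a mean cRPKM of at least 5, IGFBP5 being the one that remained both times. IGF2 is a low gene, which the larger pseudocount keeps under 2-fold and the stricter filter leaves out. In SRRM3 the count of 0 became 1 with the 1.5-fold rule (IGFBP5) and 2 with the MSI1 library as control (IGF2 and IGFBP5). In SRRM4 the count of 0 became 1 with the MSI1 library as control (IGF2). The count of 1 in SRRM4 against SRRM3, IGFBP5, was 1 under each of its 8 alternatives. The log2 folds of IGF2 and IGFBP5 in MSI1, and of IGFBP5 in SRRM4 against SRRM3, kept their sign under the alternatives run for them. The size for IGF2 in MSI1 depended on the pseudocount, at 1.42 in the main setting, 1.75 with 0.1 and 0.852 with 2. With the MSI1 library as control the log2 fold of IGF2 in SRRM3 went from 0.08 to -1.34, and that of IGFBP5 in SRRM4 from -0.49 to 0.69. With 150 to 315 reads outside the MSI1 peak, IGF2, IGFBP3 and IGFBP4 carry the widest counting intervals, and biological spread is unknown for all 10 genes.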
